A study of Mus musculus with 4 samples.

Results

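A set of 9 genes that act in the change from nucleosomes to protamines in male germ cells was followed here: 2 histone variants of the testis (Hist1h2ba and Hist1h1t), a linker histone of spermatids (Hils1), a chromatin remodeler (Chd5), 2 transition proteins (Tnp1 and Tnp2) and 3 genes named as protamines (Prm1, Prm2 and Prm3). They were taken by symbol from the gene names of the deposited count matrices, and all 9 were found among 32285 genes. Single-cell RNA (3′ droplet scRNA-seq, unique molecular identifiers, UMIs) was measured in unsorted cells of mouse testicular organoids (TOs) and of testes, with 2 libraries of each. TOs were reaggregated from dissociated testis cells of neonatal ICR mice and cultured in a basement membrane matrix, so their germ cells descend from those of the pups. The testes came from 28-day-old mice. For the TOs the series text and the methods give 28 days, whereas a protocol label gives day 21. The methods count the days of TOs in culture, so they are not ages of animals. By the methods, the TO medium also held follicle-stimulating hormone, testosterone and antioxidants. No sample carried a genetic change or a drug treatment by its labels. The methods speak of independent organoid batches without saying which library came from which, and the testis libraries are called biological replicates without a word on how many animals each holds. Tests between libraries measure the spread between these 4 samples.

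In spermatogenesis, spermatogonia become spermatocytes, which pass through leptotene, zygotene, pachytene and diplotene of meiosis and divide into round spermatids, and these elongate into sperm. Testis histone variants replace somatic histones in spermatocytes and loosen the nucleosomes. In elongating spermatids most histones are removed and transition proteins take their place for a time, until the small arginine-rich protamines pack the DNA of the sperm head. Transcripts of transition proteins and protamines are made in round and elongating spermatids and stored before they are translated, so a transcript can be present well before its protein. Reads in these libraries start from poly(A) tails, and histone transcripts without such a tail are not captured.

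The 4 libraries held 11826 to 14643 barcodes and 74988295 to 119966959 UMIs, with a median of 2833 and 3314 UMIs per barcode in the testes and 5316 and 7764 in the TOs. Any pair of libraries shared 30 to 55 cell barcodes. After filtering, 758 and 632 germ cells in the TOs (replicates 1 and 2) and 2781 and 4037 in the testes were matched to 7 germ states, with the 9 genes left out of clustering and matching. The states rest on rebuilt names and are called undifferentiated-like, differentiating-like (both spermatogonia), leptotene/zygotene-like, pachytene-like, diplotene-like, round spermatid-like and late spermatid-like. In the testes, the markers were highest in their own state for 7 of 7 late spermatid genes in both libraries and for 6 of 6 leptotene/zygotene genes, but for only 1 and 2 of 6 genes of the diplotene and dividing list and for 2 and 3 genes of the differentiating list, so those 2 names stand for a place in the order. The testes differed from each other in late spermatid-like cells, with 275 in replicate 1 and 2253 in replicate 2, and no TO cell of at least 3000 UMIs matched a spermatid state within the filters. Before that minimum and the matching, germ cells were clustered alone. There 15 and 13 cells of TO replicates 1 and 2 lay in clusters named for round spermatids and 0 in those named for late ones. In the preceding clustering of all cells, TO cells lay in clusters of both names. The clusters with most of them held 24 and 15 TO cells (round) and 5 and 15 TO cells (late). Within the filters, pachytene-like and diplotene-like cells of the TOs were few, with 9 and 2 in TO replicate 1 and 11 and 13 in TO replicate 2. Levels are given as counts per 1000000 UMIs of the summed cells (CPM). They are not divided by transcript length, because 3′ counting gives each transcript molecule the same chance at any length. Intervals are exact 95% Poisson intervals and cover counting error only.

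The 9 genes lie on 5 mouse chromosomes (GRCm38, the build of the files). A group of 4 forms a cluster on chromosome 16 that spans 17904 bases, from 10787936 to 10805839, all on the minus strand: Tnp2 (chr16:10787936-10788660), Prm3 (chr16:10790505-10790914), Prm2 (chr16:10791380-10796134) and Prm1 (chr16:10796326-10805839). Hist1h1t (chr13:23695814-23696725, plus strand) and Hist1h2ba (chr13:23933773-23934156, minus strand) lie among histone genes of chromosome 13. Tnp1 (chr1:73015074-73015909, minus strand), Chd5 (chr4:152338651-152390194, plus strand) and Hils1 (chr11:94967593-94968456, plus strand) lie on their own. Neighbours of the cluster appeared in different germ states, as the levels given further on show, so the DNA before the start of 4 late genes and of the earliest gene, Hist1h2ba, is printed here. Each sequence is the 250 bases upstream of the RefSeq start on the minus strand, written 5′ to 3′, from chr13:23934157-23934406 (Hist1h2ba, named H2bc1 in RefSeq), chr1:73015900-73016149 (Tnp1), chr16:10788656-10788905 (Tnp2), chr16:10796824-10797073 (Prm1) and chr16:10792106-10792355 (Prm2). The gene intervals and the cluster span above are those of GENCODE, whose Prm1 and Prm2 start further upstream. By GENCODE the printed windows of Prm1 and Prm2 thus lie inside the genes. Capitals mark the octamer ATTTGCAT, the box TATAA, or an 8-base run with at most 1 mismatch to TGACGTCA (the cAMP response element, CRE, which CREM binds in spermatids).
Hist1h2ba: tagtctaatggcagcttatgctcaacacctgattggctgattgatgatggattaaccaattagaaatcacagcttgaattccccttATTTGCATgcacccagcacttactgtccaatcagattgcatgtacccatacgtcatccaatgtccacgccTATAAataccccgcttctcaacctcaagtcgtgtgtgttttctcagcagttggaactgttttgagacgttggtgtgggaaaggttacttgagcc
Tnp1: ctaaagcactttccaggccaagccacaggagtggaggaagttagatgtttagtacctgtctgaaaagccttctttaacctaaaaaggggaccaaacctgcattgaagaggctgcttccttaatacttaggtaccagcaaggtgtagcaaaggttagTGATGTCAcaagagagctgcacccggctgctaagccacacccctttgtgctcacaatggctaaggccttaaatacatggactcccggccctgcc
Tnp2: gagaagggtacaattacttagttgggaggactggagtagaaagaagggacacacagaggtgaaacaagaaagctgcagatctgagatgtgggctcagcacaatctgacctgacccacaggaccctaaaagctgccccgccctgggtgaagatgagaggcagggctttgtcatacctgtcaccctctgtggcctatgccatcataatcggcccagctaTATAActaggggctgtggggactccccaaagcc
Prm1: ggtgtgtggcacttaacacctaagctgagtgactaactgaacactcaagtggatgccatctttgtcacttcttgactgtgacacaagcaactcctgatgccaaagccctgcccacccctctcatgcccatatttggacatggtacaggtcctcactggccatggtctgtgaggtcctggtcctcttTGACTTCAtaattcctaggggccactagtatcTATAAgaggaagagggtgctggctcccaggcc
Prm2: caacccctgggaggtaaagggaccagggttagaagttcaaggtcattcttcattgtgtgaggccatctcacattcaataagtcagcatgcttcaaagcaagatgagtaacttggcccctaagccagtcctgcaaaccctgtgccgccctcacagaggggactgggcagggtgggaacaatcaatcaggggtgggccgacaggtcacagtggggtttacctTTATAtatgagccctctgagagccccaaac

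Motifs were searched on both strands of 32851 RefSeq promoters of 300 bases, 250 before and 50 after each start. The exact CRE was found in 0 of the 9 genes and in 1.79% of all promoters. With 1 mismatch allowed it was found in 5 of the 9 (Chd5, Hils1, Tnp1, Prm1 and Prm3) and in 12.5% of all. In Tnp1 the match was TGATGTCA at -94 to -87 from the start, and in Prm1 it was TGACTTCA at -64 to -57. TATAA was found in 5 of the 9 and in 24.9% of all, at -33 to -29 in Tnp2, at -32 to -28 in Prm1, at -41 to -37 in Hist1h1t and, on the opposite strand, at -30 to -26 in Prm2. Hist1h2ba held the octamer, which 1.74% of all promoters held, at -164 to -157, together with 4 matches to CCAAT, a box that 4 of the 9 genes and 37.4% of all promoters held. These matches describe the letters in the window and are not evidence of binding.

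All 9 genes were measured in all 4 libraries, and their summed abundance separated testes from TOs before any cell was named. Over all barcodes the 9 genes gave 782 and 1863 UMIs in TO replicates 1 and 2, which was 0.000734% and 0.00155% of the UMIs of those libraries. In testis replicates 1 and 2 they gave 640720 and 3938857 UMIs, or 0.832% and 5.25% of all UMIs. At least 1 UMI of any of the 9 was found in 3.39% and 5.20% of TO barcodes and in 99.99% and 100% of testis barcodes. In such sums over all barcodes, fewer germ cells and less RNA per cell cannot be told apart.

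The genes did not share this gap equally. Hist1h2ba gave 283 and 646 UMIs in the TOs against 281 and 939 in the testes, so that the ranges overlapped. Hist1h1t gave 282 and 310 against 1553 and 1844, and Chd5 gave 130 and 214 against 7576 and 7473. Beyond these, TO replicate 2 had 429 UMIs of Hils1 and 116 of Prm3 where TO replicate 1 had 32 and 14. Transcripts of the protamines Prm1 and Prm2 and of the transition proteins were close to none in the TOs. They gave 10 and 35 UMIs of Prm1, 7 and 24 of Prm2, 15 and 72 of Tnp1 and 9 and 17 of Tnp2. The same 4 genes gave 228432 and 1161333 (Prm1), 96018 and 1408373 (Prm2), 100416 and 506958 (Tnp1) and 114056 and 751564 (Tnp2) in the testes.

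The order of appearance was read in the testes as the first germ state in which a gene stood at least 3 times above the somatic cells of the same library, with intervals that did not overlap and at least 10 UMIs, in both testis libraries. Hist1h2ba came first, in differentiating-like cells, and Hist1h1t next, in leptotene/zygotene-like cells. Hils1 followed in diplotene-like cells, and Chd5 and Prm3 in round spermatid-like cells. Tnp1, Tnp2, Prm1 and Prm2 came last, in late spermatid-like cells. The level required was set by each gene's own somatic level, which over both testes was 0.858 CPM for Hist1h2ba and 1110 CPM for Prm1. Genes with a high somatic level could thus appear only at a high level, and a lower level in earlier states would go unseen. Raising or lowering the required ratio, or setting the highest somatic type as the background, moved some of the first 5 genes by 1 state but left these last 4 in place. The exception was an alternative that thinned each cell to 1500 UMIs and took the percentage of cells that kept a UMI, by which the last 4 genes had no state of appearance, because 68.9% and 84.0% of testis somatic cells already had a UMI of Prm1 and the late spermatid-like cells, at 98.2% and 99.8%, could not reach 3 times that share (97.8% and 99.8% of somatic cells and 100% of late spermatid-like cells had one before thinning).

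Hist1h2ba encodes the testis form of histone H2B and marked the entry to meiosis in both TOs and testes. It was at 2.10, 0, 0.892 and 2.06 CPM in undifferentiated-like cells, taken in the order TO replicate 1, TO replicate 2, testis replicate 1 and testis replicate 2. In differentiating-like cells it was at 19.3, 37.0, 14.4 and 52.8 CPM. In leptotene/zygotene-like cells it was at 54.7, 92.7, 49.2 and 135.6 CPM (65, 238, 48 and 270 UMIs). The TO values lay between the 2 testis values in both of these states, and the highest state was the same in all 4 libraries. In the testes the level was 11.3 and 19.9 CPM in pachytene-like cells and under 1 CPM in every later state, with 0 UMIs in late spermatid-like cells of replicate 1. Somatic cells were at 0.309, 0.108, 0.645 and 1.08 CPM. These were the lowest somatic levels of the 9 genes in the testes.

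Hist1h1t encodes the testis linker histone H1t, a variant that joins chromatin in pachytene. In leptotene/zygotene-like cells it was at 7.57 (3.46–14.4) and 9.74 (6.30–14.4) CPM in the TOs and at 19.5 (11.7–30.4) and 47.2 (38.2–57.8) CPM in the testes. Both TO values were below both testis values there. In the testes it peaked in pachytene-like cells, at 31.4 and 61.4 CPM, and the 2 libraries then parted, with 19.0 and 7.02 CPM in diplotene-like cells and 21.0 and 6.34 CPM in round spermatid-like cells. Late spermatid-like cells were at 7.15 and 4.26 CPM, within 2 times the somatic level of 4.52 and 2.43 CPM. In the TOs it was at 1.09 and 0.340 CPM in somatic cells.

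Chd5 encodes a chromodomain helicase of spermatids, and it was the only member with a level in early germ cells of the TOs that stood above their somatic cells in every early state of both libraries. It was at 7.15, 5.83 and 5.05 CPM in undifferentiated-like, differentiating-like and leptotene/zygotene-like cells of TO replicate 1 and at 5.46, 8.35 and 6.62 CPM in those of TO replicate 2, on 6 to 17 UMIs each. TO somatic cells were at 0.400 and 0.324 CPM. In the testes the same 3 states were at 37.4, 44.8 and 31.8 CPM in replicate 1 and at 22.7, 27.0 and 20.1 CPM in replicate 2, beside 24.9 and 19.7 CPM in testis somatic cells. In testis replicate 2 these values were thus close to the somatic level. It was at 73.2 and 93.4 CPM in diplotene-like cells and at 159 (151–168) and 250 (231–269) CPM in round spermatid-like cells of the testes, followed by 176 and 186 CPM in late spermatid-like cells.

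Hils1 encodes a linker histone found in spermatids. In the testes it was at 604 (586–622) and 402 (383–422) CPM in diplotene-like cells, at 1141 and 934 CPM in round spermatid-like cells and, further on, at 1786 and 1180 CPM in late spermatid-like cells. The states up to pachytene were at 74.2 to 205 CPM, which spanned the somatic level of 163 and 108 CPM. In the TOs it was at 0 CPM in all 3 early states of replicate 1 and at 0.522 to 1.56 CPM, on 1 or 2 UMIs each, in those of replicate 2.

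Prm3 lies between Prm2 and Tnp2 and encodes an acidic protein that is no DNA-packing protamine, and its transcript came up in spermatid states before those of its neighbours. It was at 312 and 159 CPM in diplotene-like, 977 and 582 CPM in round spermatid-like and 1841 and 2296 CPM in late spermatid-like cells of the testes, against 126 and 70.1 CPM in somatic cells. From round to late spermatid-like cells Prm3 thus moved less than Prm1, which went from 562 to 32029 CPM in testis replicate 1 and from 1512 to 52339 CPM in replicate 2. In the TOs it was at no more than 1.26 CPM (3 UMIs) in any of the 3 early states.

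The transition proteins hold the DNA between histone removal and protamine loading, and both were far higher in late than in round spermatid-like cells. In testis replicates 1 and 2, Tnp1 stood at 865 and 1063 CPM in round and at 11663 and 22521 CPM in late spermatid-like cells. The values of Tnp2 were 380.1 and 1012 CPM in round and 15924 and 33723 CPM in late ones. Round spermatid-like cells of replicate 1 held Tnp1 above its somatic level of 358 CPM but Tnp2 at its somatic level of 384 CPM. By UMIs per cell, which do not divide by the greater depth of round spermatid-like cells, the same Tnp2 was at 4.23 against 2.22. In replicate 2 the somatic levels were 609.9 (Tnp1) and 782 CPM (Tnp2), and the round spermatid-like cells were above both by less than 2 times in CPM.

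The protamines Prm1 and Prm2, which pack the DNA of the sperm head, reached the highest levels of the 9 genes. Prm1 was at 32029 and 52339 CPM in late spermatid-like cells of the testes, or 293 and 388 UMIs per cell, and Prm2 was at 13600 and 61558 CPM, or 124 and 456 UMIs per cell. In round spermatid-like cells Prm1 was at 562 and 1512 CPM and Prm2 at 246 and 1221 CPM, beside somatic levels of 865 and 1366 CPM (Prm1) and 322 and 1180 CPM (Prm2). By UMIs per cell they were 1.25 and 1.35 times (Prm1) and 1.47 and 1.26 times (Prm2) the somatic level. Prm1 ranked above Prm2 in testis replicate 1 and below it in testis replicate 2.

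**Figure D1:**
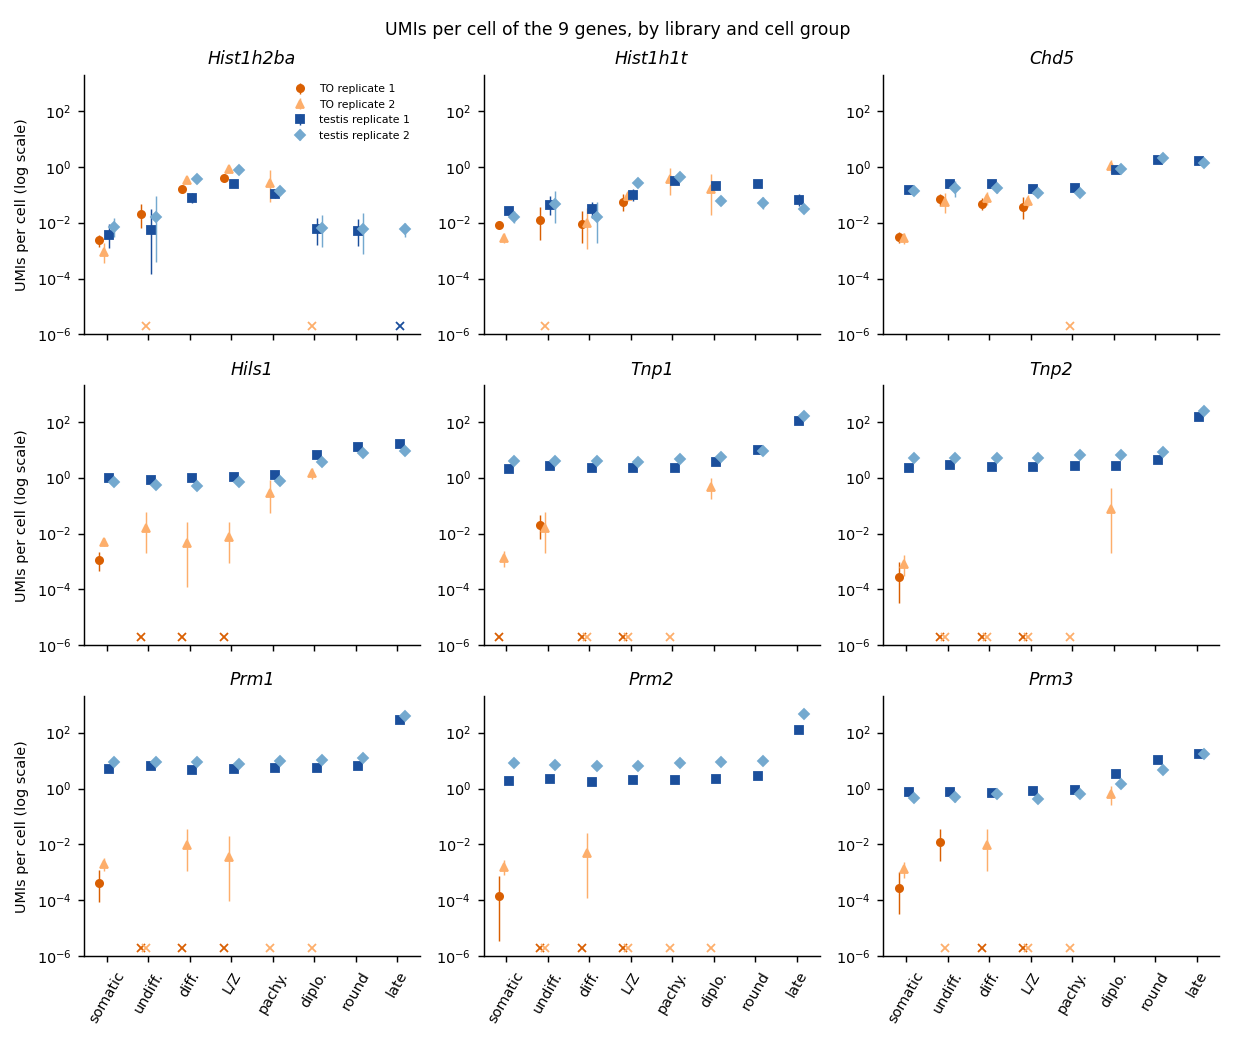
UMIs per cell (log scale) of each gene in somatic cells and in 7 germ states of each library, with exact 95% Poisson intervals of counting error; crosses mark 0 UMIs, and groups under 10 cells are left out. Hist1h2ba is highest in leptotene/zygotene-like cells of all 4 libraries, whereas Tnp1, Tnp2, Prm1 and Prm2 are highest by far in late spermatid-like cells of the testes, a state that no TO cell matched. In round spermatid-like cells of testis replicate 1, Tnp1 stands at 9.64 UMIs per cell against 2.07 in somatic cells.

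Within the spermatids of the testes, cells were ranked by how much more their profile resembled the late than the round state, with the 9 genes left out, and split into 6 bins at common limits. The bins of testis replicate 1 held 264, 320, 271, 63, 31 and 93 cells and those of replicate 2 held 206, 66, 191, 705, 784 and 631. The first bin at 50% or more of the highest one in both testes was bin 1 for Chd5 and Hist1h1t, bin 2 for Hils1 and bin 4 for Tnp1, Tnp2, Prm1, Prm2 and Prm3. Prm3 was already at 66.3% of its highest bin in bin 3 of testis replicate 1. Hist1h2ba rested on 1 to 5 UMIs in a bin and is not ordered. At 75% of the highest bin Prm3 still reached the level in bin 4, Tnp1, Tnp2, Prm1 and Prm2 reached it in bin 5, and Hils1 only in bin 6, so the place of Hils1 before the late genes rests on the level chosen.

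Prm1 went from 2880 CPM in bin 3 to 28323 in bin 4 and 48678 in bin 6 of testis replicate 1, and from 4448 to 46812 and 56292 CPM in replicate 2. Tnp1 went from 1977 to 9530 and 17577 CPM between the same bins in replicate 1 and from 2588 to 16638 and 27107 CPM in replicate 2. Tnp2 went from 1648 to 14402 and 24395 CPM in replicate 1 and from 3173 to 22678 and 43696 CPM in replicate 2. All 3 were highest in bin 6, except Prm1 in replicate 2, which was highest in bin 5 at 59177 CPM. Prm2 went the same way in replicate 1 (1254, 12501 and 20161 CPM), but in replicate 2 it was highest in bin 4, at 75028 CPM, and lower in bin 6, at 55113 CPM. Prm3 spanned a narrower range, from 786 and 447 CPM in bin 1 to 2024 and 2273 CPM in bin 6. Chd5 was at 146 to 230 CPM over the bins of replicate 1 and at 136 to 265 CPM over those of replicate 2, and Hist1h1t went from 20.4 to 3.16 CPM in replicate 1 while it was at no more than 7.72 CPM in any bin of replicate 2.

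**Figure D2:**
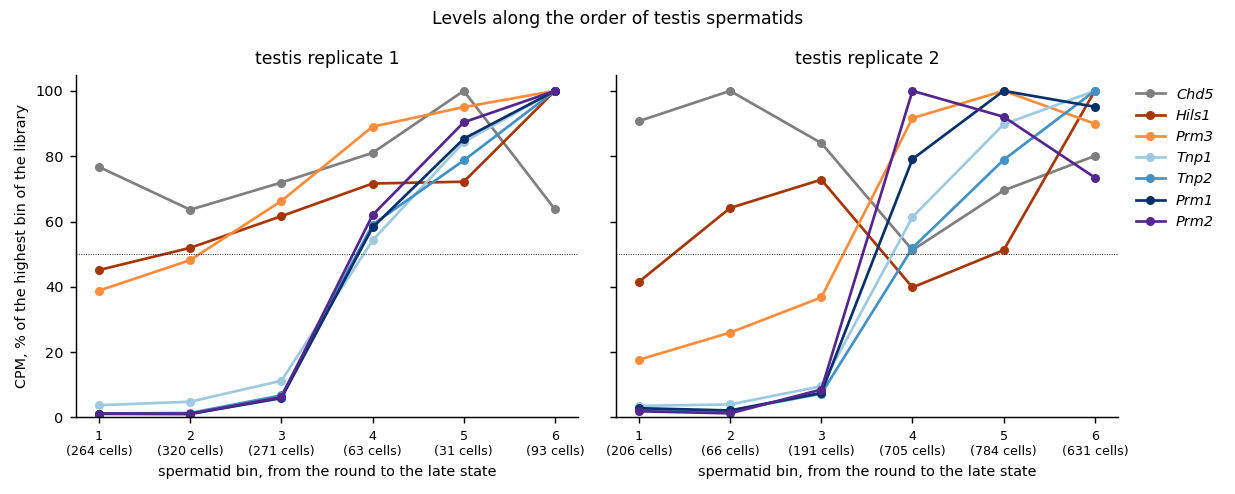
Level of the genes, as a percentage of the highest bin of each gene, along 6 bins of spermatid-like cells of the 2 testes, ordered from round to late. Chd5 and Hils1 reach 50% by bin 2, whereas Tnp1, Tnp2, Prm1 and Prm2 pass 50% between bins 3 and 4 in both testes.

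Transcripts of late spermatids were found in every kind of testis droplet at a nearly even level, so the somatic level stands beside that of each earlier state. Prm1 had at least 1 UMI in 98.96% and 99.87% of all testis barcodes, against 0.0683% and 0.280% of TO barcodes. Its median was 4 to 5 UMIs per cell in every somatic type and in every state up to diplotene in testis replicate 1, and 7 to 10 in those of replicate 2, against 203 and 371 in late spermatid-like cells. Mean Prm1 was 4.38 to 5.90 UMIs per cell over the 5 somatic types and 4.54 to 6.32 over the 4 states from undifferentiated to pachytene in replicate 1. In replicate 2 it was 7.34 to 17.2 over the somatic types and 7.85 to 9.47 over the 4 states, and the upper end of 17.2 came from Sertoli-like cells, in which the median was 9 and the highest cell had 345. The ranges of somatic and early germ cells overlapped for Prm2, Tnp1, Tnp2, Hils1 and Prm3 too in both testes. The ranges of Chd5 met only at their ends in replicate 1, with 0.161 to 0.244 UMIs per cell in the 4 states and 0.101 to 0.162 in the somatic types, and overlapped further in replicate 2 (0.114 to 0.180 and 0.121 to 0.139).

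The mixture of the late transcripts in a droplet was as even as their amount. Among UMIs of Hils1, Tnp1, Tnp2, Prm1, Prm2 and Prm3, Prm1 made up 37.8 to 39.95% over the somatic types of testis replicate 1 and 36.5 to 40.8% over its 4 early states. Its share was 41.7% in late spermatid-like cells, but 23.6% in diplotene-like and 13.5% in round spermatid-like cells, where Hils1 made up 26.6% and 27.4% and Prm3 13.8% and 23.4%. In testis replicate 2 the somatic types had 31.5 to 34.8% Prm1 and 26.8 to 33.2% Prm2, beside 30.15% and 35.5% in late spermatid-like cells. The makeup of somatic and early germ cells was thus nearer, in the shares of Prm1 and Hils1, to that of late than to that of round spermatid-like cells in both testes. Prm2 was mixed in replicate 2. Its share was nearer to round (19.3%) than to late spermatid-like cells in endothelial-like cells (26.8%) and the 4 early states (26.0 to 27.25%), but not in the other somatic types. The ratio of Prm2 to Prm1 was nearer to round (0.807) than to late spermatid-like cells (1.18) in all these groups.

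**Figure D3:**
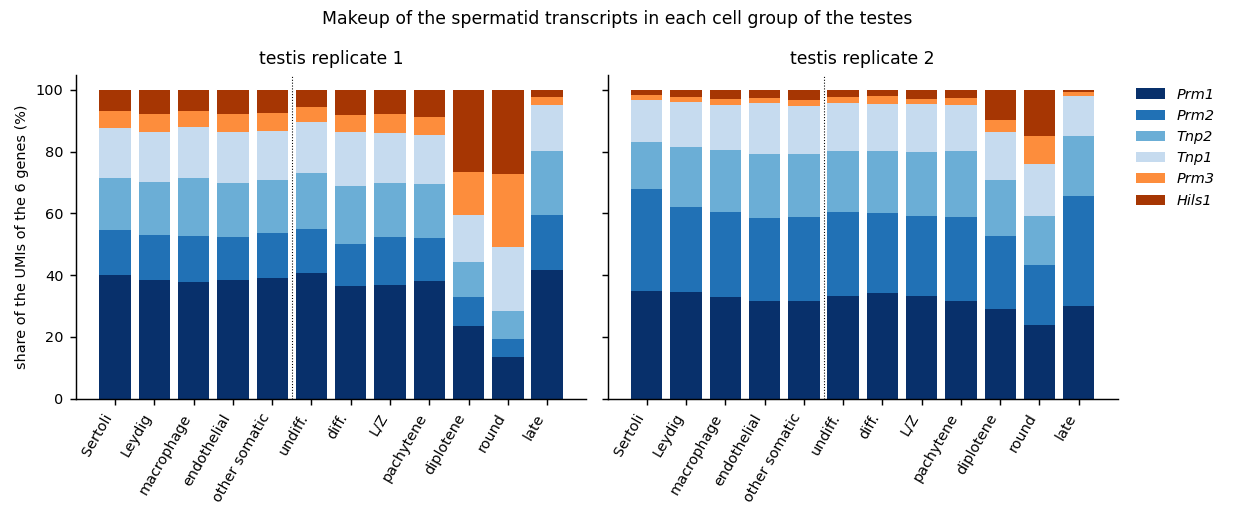
Makeup (%) of the UMIs of Prm1, Prm2, Tnp2, Tnp1, Prm3 and Hils1 in each cell group of the 2 testes, as stacked bars that sum to 100%. Somatic types and germ states up to pachytene show almost the same bar within a testis, with 37.8 to 39.95% Prm1 over the somatic types of replicate 1, while diplotene-like and round spermatid-like cells hold larger shares of Hils1 and Prm3.

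The 2 testes differed in the ratio of Prm2 to Prm1 UMIs. It was 0.351 to 0.437 over all somatic types and germ states of testis replicate 1, and 0.425 in its late spermatid-like cells. In testis replicate 2 it was 0.764 to 0.952 over the groups before late spermatids and 1.18 in late spermatid-like cells. The ranges did not overlap, and since the late spermatid-like cells of the 2 testes were spread in different proportions over the bins, the ratio is given by bin. Bins 1 to 6 stood at 0.443, 0.424, 0.435, 0.441, 0.439 and 0.414 in replicate 1 and at 0.844, 0.742, 1.44, 1.60, 1.17 and 0.979 in replicate 2, and it was higher in replicate 2 in every bin. With 1 library on each side this difference has no replicate check. The ratio of Tnp2 to Tnp1 UMIs was nearer between the testes, at 1.365 and 1.497 in late spermatid-like cells, and lower in round spermatid-like cells, at 0.439 and 0.953.

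**Figure D4:**
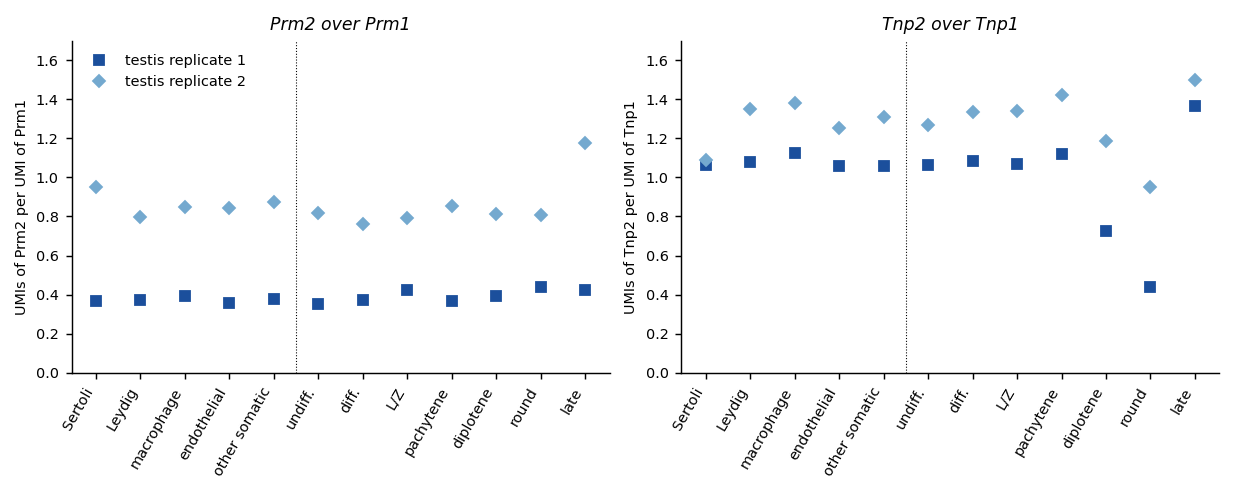
Ratio of UMIs of Prm2 to Prm1 and of Tnp2 to Tnp1 in each cell group of the 2 testis libraries. The Prm2 to Prm1 ratio of replicate 1 lies at 0.351 to 0.437 in every group and that of replicate 2 at 0.764 to 1.18, while the Tnp2 to Tnp1 ratio dips in round spermatid-like cells of replicate 1, at 0.439.

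To ask which of the 9 genes differed between TOs and testes in cells matched to the same state, UMIs were summed per library and state. The sums were tested with edgeR's quasi-likelihood test over all genes, with Benjamini-Hochberg adjustment. A gene was called where it differed by more than 1 on the log2 scale at an adjusted p under 0.01. States with 10 or more cells in each library could be tested. Cells matched to a state need not have shared a cluster. When germ cells were clustered alone, a cluster named for differentiating spermatogonia held 371 and 268 TO cells but 14 and 3 testis cells (replicates 1 and 2). Another of that name held 4 and 2 TO cells and 404 and 148 testis cells. The part of this split in the differentiating-like comparison was not tested. In undifferentiated-like cells 7 of the 7 tested members were lower in TOs, where 8.58% of 10980 genes were lower. In differentiating-like cells it was 7 of 8, where 12.2% of 11700 genes were lower, and in leptotene/zygotene-like cells 6 of 9, where 13.1% of 10777 genes were lower. In all somatic cells summed it was 7 of 9, where 14.7% of 19638 genes were lower. No member was higher in TOs in any of these 4 sums by edgeR or by DESeq2, where 0.601%, 1.29%, 1.49% and 1.92% of genes were higher by edgeR. By an unadjusted p below 0.05, too, 0 members were higher in these 4 sums. Hils1, Tnp1, Tnp2, Prm1, Prm2 and Prm3 had 0 to 7 TO UMIs over both libraries in each of the germ states and 8 to 47 in somatic cells. They passed the count filter through the testes. For these 6 genes only a lower call was possible in the 4 sums, so their direction was fixed before the test.

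Tnp1, Tnp2, Prm1, Prm2, Prm3 and Hils1 were called lower in each of the 4 sums, on 0 to 7 TO UMIs over both libraries in the germ states. In undifferentiated-like cells the pooled level of the TOs was at least 1281-fold lower for Prm1, at least 646-fold for Prm2 and at least 627-fold for Tnp2, taking 3 counts over both TO libraries as the limit that 0 UMIs allow. In leptotene/zygotene-like cells it was at least 1087-fold lower for Prm2, at least 914-fold for Tnp2, at least 718.5-fold for Tnp1 and at least 132-fold for Prm3. Where a TO count was 1 to 3, the pooled ratio of testes to TOs was 216.5 (59.1–1800) for Hils1 in undifferentiated-like cells and 4689 (841–185273) for Prm1 in leptotene/zygotene-like cells. In somatic cells, which do not transcribe these genes, the same ratio was 7385 (4671–12464) for Prm1, 6829 (3992–12829) for Prm2, 8663 (4394–20071) for Tnp2, 5761 (3131–12019) for Tnp1, 985 (562–1911) for Prm3 and 346 (259–473) for Hils1. The UMIs per cell of these 6 genes in early germ cells of the testes overlapped those of testis somatic types. In replicate 1 the highest early state exceeded the highest somatic type, at 2.59 against 2.38 for Tnp1, 2.77 against 2.52 for Tnp2, 6.32 against 5.90 for Prm1 and 2.22 against 2.15 for Prm2. The somatic UMIs per cell of the same library were then subtracted from the members before the fit, and values below 0 were set to 0. By edgeR, 4 members stayed called in undifferentiated-like cells (Tnp1, Tnp2, Prm1 and Prm2, adjusted p = 0.003133, 0.001334, 9.122e-04 and 0.001835). In differentiating-like cells 1 stayed called (Tnp2, adjusted p = 0.008626), and in leptotene/zygotene-like cells 0 did. There 6 members had an unadjusted p below 0.05 (all lower in TOs, and this subtracted fit was not run with DESeq2). In testis replicate 2, each gene still called had fewer UMIs per cell in that state than in somatic cells, and it was set to 0. The calls that stayed thus rested on testis replicate 1 alone. The subtracted log2 fold change turned positive, without passing the test, for Hils1 in undifferentiated-like cells (1.95) and for Prm1 (2.87) and Prm2 (2.05) in differentiating-like cells. In these cases both testes were set to 0, and before subtraction the TOs had 2, 2 and 1 UMIs over both libraries. The positive signs thus do not show a higher level in TOs.

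The other 3 members, Hist1h2ba, Hist1h1t and Chd5, had more TO UMIs, and their values follow. Hist1h2ba could be tested in differentiating-like, leptotene/zygotene-like and somatic cells and was called in none of them. Its log2 fold change (TO against testis) was -0.16 (SE 0.50, adjusted p = 0.8785) in differentiating-like cells and -0.31 (SE 0.42, adjusted p = 0.6435) in leptotene/zygotene-like cells, and the pooled ratio of testes to TOs was 1.00 (0.738–1.35) and 1.33 (1.13–1.56). The sign of both changed when testis replicate 2 was left out (0.90 and 0.63) or TO replicate 1 (0.28 and 0.02). The log2 fold change of Hist1h1t in leptotene/zygotene-like cells was -1.93 (SE 0.49) and missed the threshold (adjusted p = 0.01619), and the pooled ratio was 4.21 (2.85–6.37). Chd5 was called lower in undifferentiated-like cells (log2 fold change -2.35, SE 0.44, adjusted p = 0.001259) and in differentiating-like cells (-2.45, SE 0.39, adjusted p = 0.0005413), but not in leptotene/zygotene-like cells (-2.05, SE 0.50, adjusted p = 0.0126). In somatic cells it was called lower as well (-5.79, SE 0.38, adjusted p = 0.0002346), and after subtraction of the somatic UMIs it was called in none of the 3 germ states, with log2 fold changes of -0.94, -1.10 and 2.34 in the same order.

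Pachytene-like cells of the TOs could be tested only when the upper limits of 5000 genes and 20000 UMIs per cell were lifted, a step taken after the data were seen. This gave 32 and 37 pachytene-like cells in TO replicates 1 and 2 and 548 and 769 in the testes, with medians of 37470 and 46482 UMIs in the TOs and 14636 and 14333 in the testes. Hist1h1t was then at 84.5, 83.2, 53.1 and 79.5 CPM (91, 163, 474 and 1207 UMIs), with both TO values above both testis values, and its log2 fold change was 0.27 (SE 0.25, adjusted p = 0.6022). Hist1h2ba was at 15.8, 28.1, 11.3 and 27.7 CPM, and its log2 fold change was 0.14 (SE 0.48, adjusted p = 0.9027). The pachytene marker list stood at 8513 and 8009 CPM in the TOs and at 9177 and 9126 CPM in the testes. Both histone variants were thus present in these TO cells, and neither difference was larger than the spread between the libraries, which with 2 a group leaves smaller differences undetected. In the same sums 6 of 9 members were lower in TOs (Hils1, Tnp1, Tnp2, Prm1, Prm2 and Prm3), where 0.852% of 13146 genes were lower and 0.304% were higher. These 6 had 0 to 5 UMIs in each TO library and passed the count filter through the testes, so only a lower call was possible. Prm1, Prm2 and Prm3 had 0 UMIs in both TOs, while testis pachytene-like cells held 354 and 735 CPM of Prm1, and after subtraction of the somatic UMIs only Prm3 stayed called (adjusted p = 0.005667). Chd5 was at 2.79, 1.53, 13.3 and 7.37 CPM and did not pass (-2.39, SE 0.61, adjusted p = 0.0507).

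Transcripts of spermatids in the TOs came from few barcodes, most of them in TO replicate 2 and most above the upper limits of the filters. In TO replicate 2 the 1490 barcodes above those limits held 308 of 429 UMIs of Hils1 (71.8%, in 31 barcodes), 87 of 116 of Prm3 (75.0%, in 15 barcodes) and 49 of 72 of Tnp1 (68.1%, in 23 barcodes). The barcode richest in Hils1 had 76 of its UMIs, with 12 of Chd5, 13 of Prm3, 4 of Tnp1, 3 of Prm2 and 0 of Prm1, among 193846 UMIs and 10502 genes. A barcode of 89269 UMIs and 8655 genes had 41 of Hils1, 13 of Chd5, 14 of Prm3 and 13 of Tnp1. The 5 barcodes richest in Hils1 had 56140 to 202276 UMIs each and 0 UMIs of Prm1. Prm1 lay apart from the others, with 12 of its 35 UMIs in 12 barcodes above the limits, 1 in each. Whether such deep barcodes held more than 1 cell was not tested beyond the doublet caller.

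**Figure D5:**
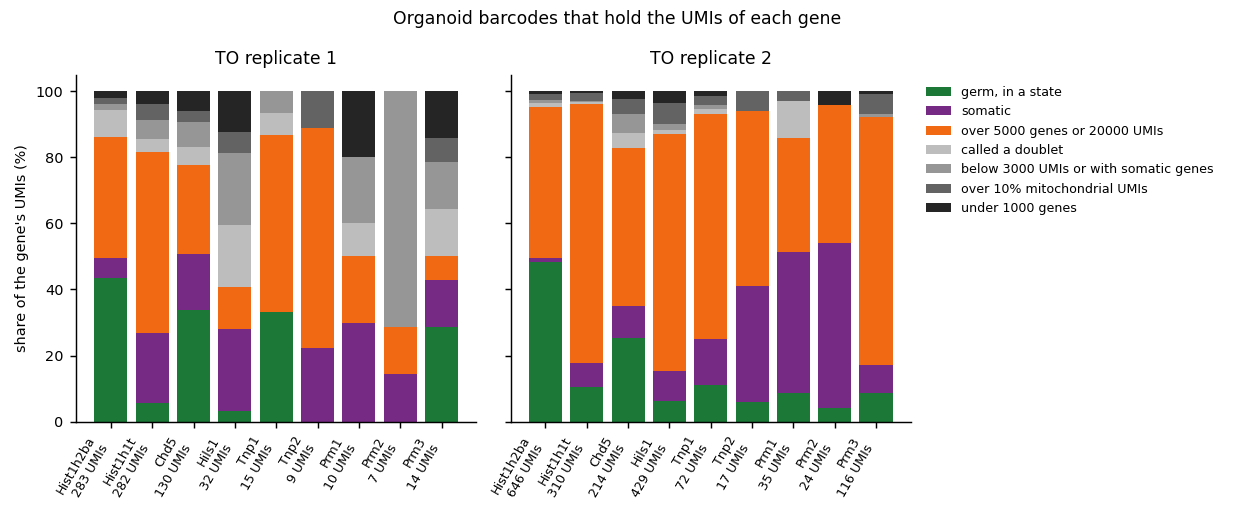
Share (%) of the UMIs of each gene in the 2 TO libraries by class of barcode, as stacked bars that sum to 100%. In TO replicate 2, barcodes above 5000 genes or 20000 UMIs hold 71.8% of Hils1, 75.0% of Prm3 and 68.1% of Tnp1 UMIs but 34.3% of Prm1 UMIs.

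Within the filters, the 13 diplotene-like cells of TO replicate 2 held Hils1 at 307 (185–480) CPM on 19 UMIs, Chd5 at 227 (124–380) CPM on 14, Prm3 at 129 (55.9–255) CPM on 8 and Tnp1 at 97.1 CPM on 6, with 1 UMI of Tnp2 and 0 of Prm1 and Prm2. The interval of Hils1 reached the 402 CPM of diplotene-like cells of testis replicate 2 and not the 604 CPM of replicate 1. The interval of Chd5 lay above both diplotene-like testis values of 73.2 and 93.4 CPM. It did not lie above the Chd5 levels of round spermatid-like testis cells given earlier. In the same 13 cells the round spermatid marker list stood at 2492 CPM, beside 2319 and 2182 CPM in diplotene-like cells of the testes. The list of diplotene and dividing markers stood at 696 CPM, beside 1085 and 1142 CPM. The Sertoli list stood at 146 CPM beside 17.4 and 14.5, and the Leydig list at 129 CPM beside 11.6 and 17.9, and the part of these other cells in the result was not tested. With the upper limits lifted there were 28 such cells in TO replicate 2, with Hils1 at 262 (233–294) CPM on 289 UMIs, Prm3 at 83.4 CPM on 92, Chd5 at 71.6 CPM on 79 and Tnp1 at 32.7 CPM on 36. Their testis counterparts held 632 and 453 CPM of Hils1, 320.4 and 176 of Prm3, 76.7 and 96.6 of Chd5 and 302 and 553 of Tnp1. Of the protamines these 28 cells had 2 UMIs of Prm1 and 6 of Prm2. One library holds these cells, so they give values and no test. Of the 15 and 13 TO cells in round spermatid clusters of the germ cells alone, 3 and 11 had at least 3000 UMIs, and 2 and 11 of these matched the diplotene-like state. Thus 11 of the 13 diplotene-like cells of TO replicate 2 within the filters came from round spermatid clusters. In all, those 15 and 13 cells held 13 and 14 UMIs of Chd5, 4 and 17 of Hils1, 2 and 7 of Prm3, 0 and 5 of Tnp1 and 0 and 0 of Prm1.

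Genes that act around the 9 members were counted from 4 lists of pathway genes, beside shares over all genes of 8.58%, 12.2%, 13.1% and 14.7% lower in undifferentiated-like, differentiating-like, leptotene/zygotene-like and somatic sums. Of the list of 9 other histone variants, 2 were lower in TOs in each of the 4 sums and 0 were higher. They were the spermatid linker histone gene H1fnt and the spermatid H2A gene H2al2a, which in the testes were highest in late spermatid-like cells, at 783.5 and 1600 CPM (H1fnt) and 1357 and 2017 CPM (H2al2a). Both had 0 UMIs in the germ states of both TOs, and in somatic cells 0 (H1fnt) and 1 (H2al2a) in each TO library. They passed the count filter through the testes, so only a lower call was possible. H1fnt was at 0 and 0 CPM in leptotene/zygotene-like cells of the TOs and at 45.1 and 59.8 CPM in those of the testes, beside 41.3 and 47.7 CPM in testis somatic cells. The list's median log2 fold change was -0.07, -0.18, -0.43 and -0.06 in undifferentiated-like, differentiating-like, leptotene/zygotene-like and somatic cells, where the median over all genes tested was 0.02, -0.01, -0.03 and 0.04. Hist1h2aa, the H2A partner of Hist1h2ba, peaked in the same state, with 462 and 358 CPM in leptotene/zygotene-like cells of the testes against 2.71 and 1.35 CPM in their somatic cells.

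Of 12 genes of histone removal and chromatin change, 4, 3, 4 and 4 were lower in the same order of sums and 0 were higher, with medians of -0.39, -0.46, -0.85 and -0.63. The called genes included Tssk6, a spermatid kinase, Phf7, a reader and ligase of histones, and Ccer1. In the germ states Tssk6 had 0 to 2 UMIs and Ccer1 1 to 11 in each TO library. Both passed the count filter there through the testes, so only a lower call was possible. Phf7 was at 114 and 111 CPM in leptotene/zygotene-like cells of the TOs and at 499.9 and 466 CPM in those of the testes (log2 fold change -2.09). Somatic cells held Phf7 at 26.5 and 14.0 CPM in the TOs and at 283.6 and 182.7 CPM in the testes. Brdt, a bromodomain protein needed for histone removal, was called in undifferentiated-like cells only, with 45.8, 39.8, 95.4 and 78.3 CPM (-1.11, adjusted p = 0.004094), and its testis peak was in leptotene/zygotene-like cells at 225 and 383 CPM. Testis somatic cells held Brdt at 40.65 and 37.1 CPM. No somatic level was subtracted from the genes of these lists, and its part in the calls was not tested.

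Of 7 genes for transcription in spermatids, 4, 5, 4 and 4 were lower and 0 were higher, with medians of -1.25, -1.71, -1.81 and -2.53. They were Fhl5 (a partner of CREM), Gtf2a1l, Crem, Tbpl1 and Rfx2. Fhl5 had 0 or 1 UMI in each TO library in the germ states and passed the count filter through the testes, so only a lower call was possible there. Tbpl1 was at 110.2, 114, 313.5 and 483 CPM in leptotene/zygotene-like cells (-1.81) and peaked at 1174 and 1621 CPM in diplotene-like cells of the testes. Somatic cells held Tbpl1 at 35.1 and 35.9 CPM in the TOs and at 200.8 and 252.6 CPM in the testes. Of 7 genes for storage and translation of spermatid transcripts, 4, 5, 5 and 4 were lower and 0 were higher, with medians of -1.14, -2.19, -2.33 and -3.51. Ybx2, an RNA-binding protein that stores protamine transcripts, was at 142, 109.8, 578 and 696 CPM in leptotene/zygotene-like cells (-2.33, adjusted p = 0.0001175). Its testis somatic cells were at 273 and 245 CPM and TO somatic cells at 15.7 and 8.67 CPM, so the somatic level moved with this gene as well, and its part in the result was not tested.

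The genes most like each member were sought by Pearson's r of log2(CPM + 1) over 24 points, the somatic types and germ states of both testes, among 11237 genes with at least 50 CPM in a point. The points share libraries and free RNA, so r is given as a description. Hist1h2ba was nearest to Meioc (r = 0.9065), Hormad1 (0.898) and Ccp110 (0.8975), the former 2 being genes of meiotic entry and of the meiotic chromosome axis. Hist1h1t was nearest to Nol4l (0.895), 4930469K13Rik (0.855) and Psma8 (0.849), a subunit of the testis proteasome. Chd5 was nearest to 4933402J07Rik (0.970), Cylc2 (0.967) and 1700012B07Rik (0.961), and Hils1 to Fam229a, Ropn1 and Tmem247 (0.990 each). Prm3 was nearest to Morn3 (0.989), 2610318N02Rik (0.986) and Ccdc54 (0.984).

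Among the late members, Tnp1 was nearest to Tppp2 (0.985), Cabs1 (0.984) and Tex37 (0.982), and Tnp2 to 1700027A15Rik (0.991), 1700009J07Rik (0.979) and 1700016C15Rik (0.979). Prm1 was nearest to 1700015G11Rik (0.986), 1700016C15Rik (0.980) and 1700042G07Rik (0.980), and Prm2 to 1700027A15Rik (0.9825), Acte1 (0.975) and 1700009J07Rik (0.973). Between members, r was 0.989 for Prm1 and Tnp2, 0.977 for Tnp1 and Tnp2, 0.956 for Prm1 and Prm2 and 0.954 for Hils1 and Prm3. It was lower for Prm1 and its neighbour Prm3 (0.657) and for the 2 histone variants Hist1h1t and Hist1h2ba (0.479).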

How the data were processed

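Cells were unsorted and 2 TO and 2 testis libraries were analysed, one sample per library, grouped by their titles. The deposited values were raw UMI counts per gene and barcode in 1 matrix per library. Per the submitters' processing notes the authors used Cell Ranger 7.1.0 and build mm10, without a stated role for other steps. The members and all gene lists were chosen with earlier results of these data known.

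The filters kept barcodes of 1000 to 5000 genes that had no more than 20000 UMIs and no more than 10% of them mitochondrial, and doublets were removed by Scrublet scores at 0.8% per 1000 barcodes (1715, 1248, 1187 and 1119 barcodes in TO replicates 1 and 2 and testis replicates 1 and 2). Counts were scaled to 10000 per cell, 2000 variable genes and 30 components were integrated with Harmony, and Leiden clusters (20 neighbours, resolution 1) were named from marker lists. Germ cells were matched by Spearman correlation to 7 state profiles of the testes. States and sums used cells of at least 3000 UMIs, a limit chosen after the clusters were seen. UMI counts were summed per library and state. Software was Python 3.11.15, scanpy 1.11.5, numpy 2.4.6, scipy 1.17.1, leidenalg 0.10.2, R 4.3.3, edgeR 4.0.16 and DESeq2 1.42.0.

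The main test was edgeR's quasi-likelihood test (TMM, filterByExpr) with Benjamini-Hochberg adjustment over all genes tested. On counts simulated for each comparison it called 88.4%, 92.7%, 87.8% and 84.7% of genes changed 4-fold and 97.1%, 90.4%, 95.1% and 95.5% of genes changed 16-fold in undifferentiated-like, differentiating-like, leptotene/zygotene-like and somatic sums (10895, 11417, 10518 and 18751 genes). The simulation gave every gene the same fixed dispersion, which was not estimated from these libraries, so these percentages need not hold for the members. Free RNA was subtracted only from the 9 members, as the somatic UMIs per cell of the same library, with library sizes kept and values below 0 set to 0. Alternatives were other cell filters, states named from clusters, other thresholds, DESeq2, the replicate block, all genes with a count, single somatic types and each library left out. Named genes were all 9 members, up to 4 called genes of largest change per pathway list and the 3 nearest genes per member. Promoters came from RefSeq on GRCm38.p6 and gene positions from GENCODE vM21. Protein sequences were not used here. Depth limits a count of 0 to 3 UMIs of the summed total, and intervals cover counting error only.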

Additional observations from a re-analysis of the deposited data

Results flagged for a closer look

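UMIs of the members were also found in TO barcodes above 5000 genes or 20000 UMIs, which the comparisons within the filters did not use. In TO replicate 1 such barcodes held 104 UMIs of Hist1h2ba, 154 of Hist1h1t, 35 of Chd5 and 8 of Tnp1. In TO replicate 2 they held 296 UMIs of Hist1h2ba, 243 of Hist1h1t, 102 of Chd5, 308 of Hils1, 49 of Tnp1 and 87 of Prm3. Each of these counts is above the 3 UMIs that a count of 0 allows. There were 1242 such barcodes in TO replicate 1 and 1490 in TO replicate 2, and the barcode with most Hist1h1t in TO replicate 2 had 28 of its UMIs.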

How the results depend on the processing

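Among the alternatives, the count of members called lower moved by over 1.5 times only with the subtraction of free RNA, to 4 (undifferentiated-like), 1 (differentiating-like), 0 (leptotene/zygotene-like) and 1 (pachytene-like without upper limits). The calls left in undifferentiated-like and differentiating-like cells rested on testis replicate 1 alone. Under this subtraction the log2 fold change turned positive for Chd5 in leptotene/zygotene-like cells (2.34), Hils1 in undifferentiated-like cells (1.95) and Prm1 (2.87) and Prm2 (2.05) in differentiating-like cells. For Hils1, Prm1 and Prm2 both testes were set to 0 by it, and the TOs had 2, 2 and 1 UMIs. Leaving out each library gave Hist1h2ba -0.97 to 0.90 in differentiating-like, -0.81 to 0.63 in leptotene/zygotene-like and -0.50 to 0.96 in pachytene-like cells, with the sign turned to 0.90 and 0.28 in differentiating-like cells, to 0.63 and 0.02 in leptotene/zygotene-like cells (without testis replicate 2 and without TO replicate 1) and to -0.36 and -0.50 in pachytene-like cells (without testis replicate 1 and without TO replicate 2). The cause was not tested. Members called without 1 library ranged from 6 to 7, 6 to 7, 6 to 8 and 7 to 7 in the 4 sums. With the replicate block they were 7, 7, 8 and 7. The replicate numbers were not taken as pairs, since only 2 pairs exist (correlations of 0.108, 0.185, 0.0309 and 0.190). Of 9 members, 3 kept their state of appearance by the thinned share of cells, and in spermatids 4 kept their bin at 75% of the highest bin and 3 without the minimum of UMIs per cell. Genes called lower ranged over all alternatives from 499 to 1326 (main 942), 728 to 1953 (1432), 640 to 2319 (1411), 1387 to 4105 (2884) and 30 to 839 (112) in undifferentiated-like, differentiating-like, leptotene/zygotene-like, somatic and pachytene-like sums, and genes called higher from 24 to 253 (66), 82 to 534 (151), 30 to 808 (161), 128 to 1495 (378) and 18 to 262 (40). The other 146 summary values kept their call or stayed within 1.5 times.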
